A study of Homo sapiens with 4 samples.

Results

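Metastasis suppressors are genes whose products restrain the spread of a tumour to distant organs without stopping the growth of the primary tumour. They have no shared biochemistry: a secreted peptide (KISS1), metabolic kinases (NME1 and NME2), a tetraspanin of the cell surface (CD82), a subunit of a transcriptional corepressor (BRMS1), stress-activated kinases (MAP2K4 and MAP2K7), a guanine nucleotide dissociation inhibitor (ARHGDIB), an arrestin-like inhibitor of thioredoxin (TXNIP) and a stress-induced cytoplasmic protein (NDRG1). Expression of these 10 genes, out of 39259 genes in the deposited table, was followed in MDA-MB-231 cells, an established line of triple-negative breast cancer with a mesenchymal character that is widely used for work on invasion. The list was chosen from textbook knowledge, but with the differences between these same libraries known and with KISS1 among the largest of them. The differences of the 10 genes are therefore given as a description and are not tested.

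RNA was sequenced from 2 libraries of cells labelled as a knockout (KO) of mdig and from 2 libraries of wild-type (WT) cells of the same line. RIOX2 is the gene of mdig (mina53), an oxygenase of the JmjC family. All cells were grown in the same serum-containing medium, per the labels' protocols, and no treatment was applied. The labels do not say how the knockout was made, whether it is a single clone, or whether replicates were separate cultures, so errors and p-values cover library-to-library spread alone, and this may be technical.

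The libraries labelled KO held 48768932 and 52163811 fragments assigned to genes, against 45173267 and 22503981 in WT replicates 1 and 2. RIOX2 RNA measured 9.23 and 9.82 FPKM (fragments per kilobase, scaled to 1000000 assigned fragments) in the libraries labelled KO and 8.60 and 8.24 FPKM in WT. The log2 difference of 0.16 had an adjusted p of 0.0546 in a limma fit over all genes. Of 14 alternatives, whose differences ran from 0.12 to 0.20, 7 put it past the threshold as higher. The RNA level of the target thus gave no check of the label. The line showed its defining markers VIM, CD44, EGFR, AXL and FN1, from 56.0 to 2000.1 FPKM in the libraries labelled KO and from 47.2 to 2394 FPKM in WT, while SPARC, also listed as a marker, measured 0.212 to 0.296 FPKM. ESR1 and PGR, the hormone receptors, were at 0.0012 FPKM or less in every library, while ERBB2, also listed as low or absent, measured 13.2 to 14.3 FPKM in the libraries labelled KO and 12.7 to 13.2 FPKM in WT. EPCAM, an epithelial marker of the same list, measured 2.64 to 2.65 FPKM in the libraries labelled KO and 1.87 to 2.15 FPKM in WT. Markers of other cells were low: the 4 leukocyte markers summed to 0.720 to 0.968 FPKM in the libraries labelled KO and 1.34 to 1.39 FPKM in WT. The 3 endothelial markers summed to 1.37 to 1.39 FPKM in the libraries labelled KO and 1.01 to 1.05 FPKM in WT, nearly all from PECAM1. The 5 fibroblast markers summed to 2.76 to 3.05 FPKM in the libraries labelled KO and 1.90 to 2.15 FPKM in WT, nearly all from COL1A1. The part of these small differences in the results was not tested. The 5 luminal markers summed to 656.0 to 678.1 FPKM in the libraries labelled KO and 648.4 to 677.1 FPKM in WT, from keratins, with FOXA1 at 0.103 FPKM or less.

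As a description only, 3 of the 10 lay past the threshold as higher in the libraries labelled KO, 6 as lower and 1, MAP2K4, not past it, in a limma fit to all 11716 tested genes (log2(FPKM + 1), Benjamini-Hochberg adjusted p under 0.05). Across all tested genes 49.9% passed, 21.6% as higher and 28.4% as lower, and nothing is read from the count of the 10, since the list was chosen on these differences. All 10 genes passed the filter of a mean of at least 1 FPKM, and each did so in both groups. Their median log2 difference was −0.32, against −0.041 over all tested genes. The groups did not overlap for 9 of the 10, as for 77.5% of all tested genes. The list went in both directions: KISS1, ARHGDIB, NME1, NME2, BRMS1 and MAP2K7 were lower in the libraries labelled KO, and TXNIP, CD82 and NDRG1 were higher. For NME2 this holds for FPKM as deposited, which may measure its upstream exons alone, as set out below.

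**Figure D1:**
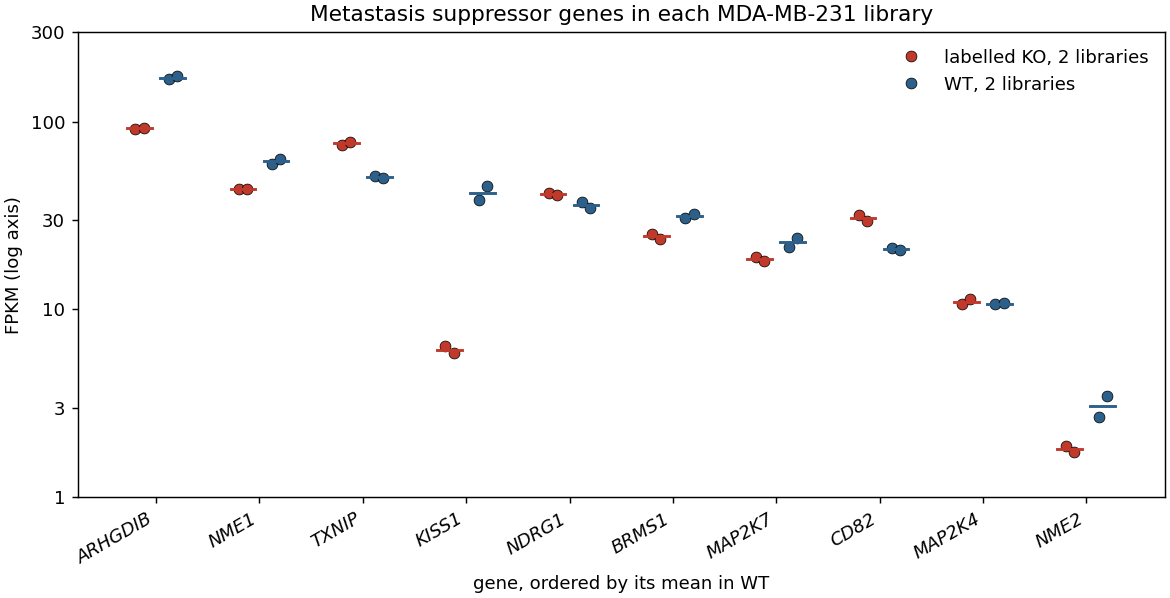
FPKM of the 10 genes (log axis) in each library labelled KO (red, left of each pair) and each WT library (blue), with bars at the group means of 2 libraries. KISS1 stands at 6.40 and 5.83 FPKM in the libraries labelled KO and at 38.3 and 45.3 FPKM in WT, while the MAP2K4 points overlap.

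The genes spanned a wide range of abundance. The places of NME1 and NME2 below hold only for FPKM as deposited, because many of their exon bases are shared with another listed gene. In the libraries labelled KO the order of the means was ARHGDIB (92.4 FPKM), TXNIP (76.6), NME1 (43.7), NDRG1 (41.1), CD82 (30.7), BRMS1 (24.5), MAP2K7 (18.5), MAP2K4 (10.97), KISS1 (6.12) and NME2 (1.81). In WT it was ARHGDIB (171.6 FPKM), NME1 (61.4), TXNIP (50.9), KISS1 (41.8), NDRG1 (36.2), BRMS1 (31.6), MAP2K7 (22.8), CD82 (21.0), MAP2K4 (10.7) and NME2 (3.06). No 2 neighbours in either order had overlapping values in their 2 libraries. KISS1 stood at place 9 of the 10 in the libraries labelled KO and at place 4 in WT. Its KO mean exceeded that of 40.7% of the tested genes, and its WT mean that of 87.8%.

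KISS1 (Entrez ID 3814, chromosome 1, 204190341 to 204196491, minus strand, coordinates as deposited, which match GRCh38) encodes the precursor that is cut into the kisspeptins, secreted peptides first found as suppressors of melanoma metastasis. It measured 6.40 and 5.83 FPKM in the libraries labelled KO, from 223 and 217 fragments, and 38.3 and 45.3 FPKM in WT, from 1236 and 728 fragments. Both libraries labelled KO lay far below both WT libraries. The means were 6.12 ± 0.409 FPKM in the libraries labelled KO and 41.8 ± 4.94 FPKM in WT (SD, n = 2 libraries each), a ratio of 0.146, or 6.84-fold lower. The log2 difference was −2.59 (SE 0.087) on the log2(FPKM + 1) scale, the third lowest of the 11716 tested genes and number 4 of them by size. These ranks belong to that scale, on which the added 1 FPKM understates the folds of low genes. None of the 714 exon bases counted for KISS1 belonged to another gene of the table.

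The start of KISS1 is shown because it carries the largest difference. The 250 bases before its RefSeq start (GRCh38.p14, chr1:204196492-204196741, minus strand, 5′ to 3′ on the gene's strand) are printed with a TATA motif and a GC box in capitals.
KISS1 upstream: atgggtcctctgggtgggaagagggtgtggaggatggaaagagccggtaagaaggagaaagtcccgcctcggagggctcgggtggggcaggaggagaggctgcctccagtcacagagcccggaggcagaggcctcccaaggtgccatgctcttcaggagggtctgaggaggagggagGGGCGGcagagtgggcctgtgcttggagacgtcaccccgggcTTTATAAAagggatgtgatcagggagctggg
The TATA motif (TATAAA, both strands searched) ended 24 bases before the start, with an overlapping match on the other strand, and the GC box (GGGCGG, both strands searched), the motif bound by SP1-type factors, ended 68 bases before it. Of 35116 upstream windows of this length in the RefSeq table, 10.7% held the first and 42.6% the second. These are matches of letters and not measured sites.

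The neighbours of KISS1 on chromosome 1 differed much less. For distances between genes, here and below, the start of a gene is its lower coordinate on either strand. By start coordinate, the 3 nearest tested genes on each side were SNRPE, SOX13 and ETNK2 before it and PLEKHA6, PPP1R15B and PIK3C2B after it, and their log2 differences ran from −0.39 to 0.21. ETNK2, an ethanolamine kinase, measured 2.29 and 2.12 FPKM in the libraries labelled KO and 3.298 and 3.109 FPKM in WT (limma, adjusted p = 0.00155). PLEKHA6, the nearest on the other side, measured 2.47 and 2.38 FPKM in the libraries labelled KO and 2.39 and 2.25 FPKM in WT (adjusted p = 0.562). SOX13 was lower and PIK3C2B higher at the threshold (adjusted p = 0.0452 and 0.0442), but SOX13 passed in 5 of 14 alternatives and PIK3C2B in 9 of 13. Neither passed without KO replicate 1 or without KO replicate 2, and SOX13 also not without WT replicate 2. Of 29 tested genes that start within 2 Mb of KISS1, 3 were higher and 8 lower, with a median of −0.097 and a range from −0.48 to 0.61.

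**Figure D2:**
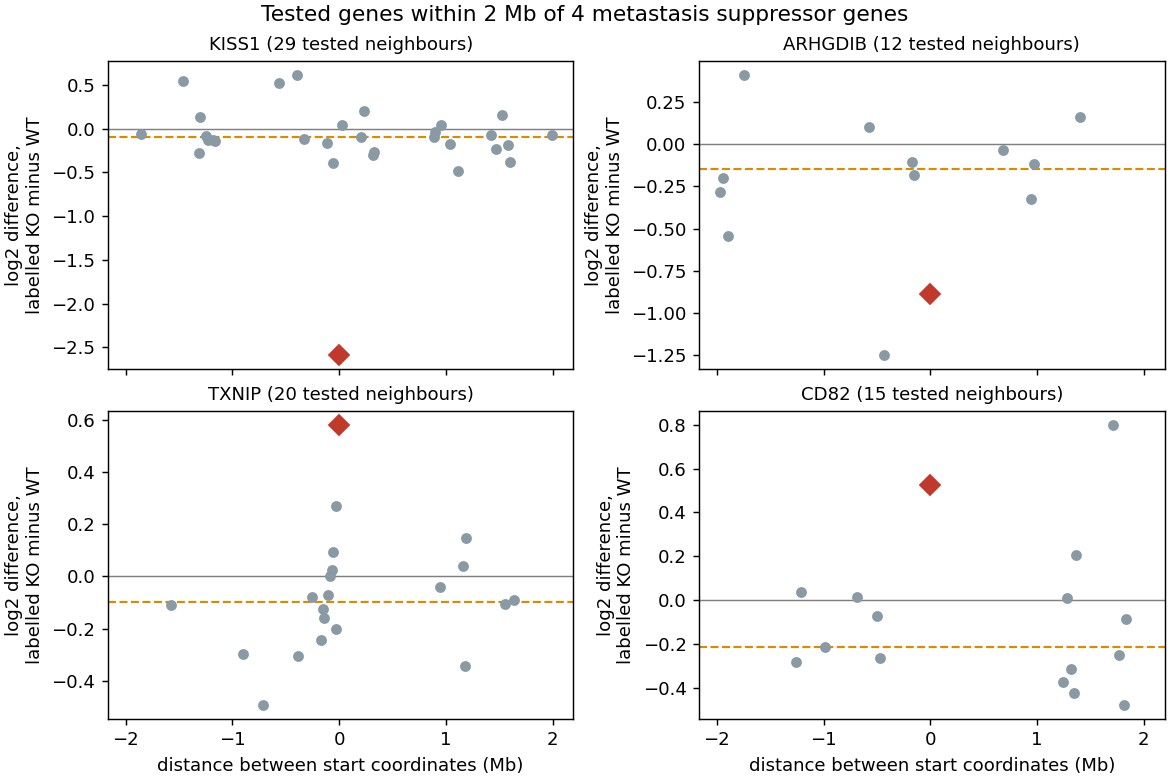
Log2 difference, libraries labelled KO minus WT, of each tested gene against the distance between its start coordinate and that of KISS1, ARHGDIB, TXNIP or CD82 (Mb), with the gene itself as a red diamond, neighbours as grey points and their median as a dashed line. KISS1 at −2.59 and TXNIP at 0.58 lie outside the range of their neighbours. ARHGDIB and CD82 lie within it, where PLBD1 alone lies below ARHGDIB and CREB3L1 alone lies above CD82.

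By the shape of their values over the 4 libraries (Euclidean distance between log2(FPKM + 1) values centred on the gene mean), the 5 protein-coding genes nearest to KISS1 were THY1 (distance 0.40), CST1 (0.45), GAL (0.49), MMP1 (0.55) and CPLX1 (0.61). With 4 libraries in 2 groups, this measure reads little beyond the size of the group difference. CST1, a secreted inhibitor of cysteine proteases, measured 52.5 and 51.7 FPKM in the libraries labelled KO and 232.2 and 240.9 FPKM in WT. MMP1, interstitial collagenase, measured 0.666 and 0.827 FPKM in the libraries labelled KO and 6.84 and 6.34 FPKM in WT.

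KISS1R, the receptor of kisspeptins, was at the edge of detection: 0 and 1 fragments were assigned to it in the libraries labelled KO and 0 and 0 in WT, under the 3 fragments taken as the limit for a library. Of 21 genes fixed as the kisspeptin pathway (receptor, convertases, Gq signalling, arrestins, regulators and matrix proteases), 12 were tested, of which 2 rose and 7 fell, with a median log2 difference of −0.24 (75.0% past the threshold, against 49.9% of all tested genes). The gelatinases MMP2 and MMP9, named after their values were seen, were at 0.12 FPKM or less in every library and not tested. PLCB1, a phospholipase C that Gq proteins switch on, fell to 1.22 and 1.48 FPKM in the libraries labelled KO, against 3.78 and 3.23 FPKM in WT (log2 difference −0.94, SE 0.084, adjusted p = 0.000121). PLCB3, a more abundant isoform that Gq proteins also activate, named after its values were seen, measured 24.1 and 23.8 FPKM in the libraries labelled KO and 22.9 and 22.9 FPKM in WT (0.064, adjusted p = 0.333). PLCB4, also on the list and also named after its values were seen, was below the filter and not tested. It measured 0.055 and 0.043 FPKM in the libraries labelled KO, from 29 and 24 fragments. In WT it measured 1.71 and 1.72 FPKM, from 830 and 416 fragments. The arrestins ARRB2 (−0.78) and ARRB1 (−0.42), which bind activated G-protein-coupled receptors, fell as well. MMP14, a membrane-bound matrix protease, rose to 127.5 and 126.1 FPKM, against 69.3 and 63.8 FPKM in WT (log2 difference 0.92, SE 0.057, adjusted p = 1.83e-05). The other rise was that of the convertase FURIN, named after its values were seen (0.21, SE 0.055, adjusted p = 0.0145; bin median 0.21). The list counted 1 rise without KO replicate 1 and without KO replicate 2. With a mean of at least 5 FPKM required, 3 of these genes fell.

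ARHGDIB (Entrez ID 397, chromosome 12, 14942015 to 14961601) encodes a guanine nucleotide dissociation inhibitor best known from blood cells. By FPKM as deposited it was the most abundant of the 10 genes in both groups, a place that in the libraries labelled KO depends on the length taken for NME1. ARHGDIB measured 91.6 and 93.2 FPKM in the libraries labelled KO and 168.9 and 174.4 FPKM in WT, from at least 7108 fragments per library. Both libraries labelled KO lay well below both WT libraries. The means were 92.4 ± 1.14 FPKM in the libraries labelled KO and 171.6 ± 3.91 FPKM in WT, with a log2 difference of −0.89 (SE 0.051). The difference lay within the range of the 12 tested genes that start within 2 Mb (−1.25 to 0.41, median −0.15). PLBD1 alone lay lower, and the next lowest was FAM234B (−0.54), both named after their values were seen.

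The widely expressed relative of ARHGDIB, ARHGDIA, also fell, to 252.7 and 231.3 FPKM in the libraries labelled KO, against 292.6 and 332.0 FPKM in WT (log2 difference −0.37, SE 0.075, adjusted p = 0.00546). That call was lost with the medians of 20 Mb bins subtracted (−0.22, adjusted p = 0.0516) and with no filter on low values (adjusted p = 0.0528, the highest over 14 alternatives). RHOC, a GTPase studied for its part in metastasis, measured 157.0 and 149.3 FPKM in the libraries labelled KO and 147.8 and 155.4 FPKM in WT (adjusted p = 0.839).

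NME1 (Entrez ID 4830, chromosome 17, 51153559 to 51162168) and NME2 (Entrez ID 4831, chromosome 17, 51165536 to 51171744) encode nucleoside diphosphate kinases, and NME1, first called NM23, was the first metastasis suppressor to be described. How their fragments were assigned bears on both values. The table also lists NME1-NME2, a readthrough gene over both, and every one of its 1272 exon bases is an exon base of NME1 (669) or NME2 (603). As a result 60.3% of the NME1 exon bases and 60.1% of the NME2 exon bases lie in the exons of more than 1 gene. The other 8 metastasis suppressors had no such base. All 456 coding bases of NME2 in GENCODE 29 were among the shared ones, so the 401 bases of NME2 alone lie in its upstream exons, and the 441 bases of NME1 alone are its last exon.

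**Figure D3:**
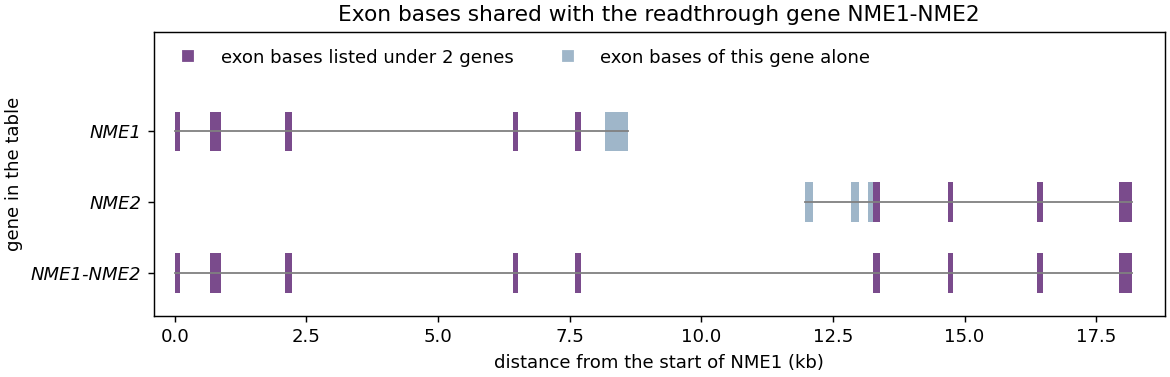
Exon bases of NME1, NME2 and NME1-NME2 in the deposited table against the distance from the start of NME1 (kb), with bases listed under 2 genes in purple and bases of 1 gene in grey-blue. NME1 keeps 441 bases of its own at its end, NME2 keeps 401 at its beginning, and NME1-NME2 keeps none.

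NME1 measured 43.6 and 43.9 FPKM in the libraries labelled KO and 59.5 and 63.4 FPKM in WT, from 1583 to 2983 fragments. NME2 measured 1.88 and 1.74 FPKM in the libraries labelled KO, from 92 and 91 fragments, and 2.67 and 3.45 FPKM in WT, from 121 and 78 fragments. NME1-NME2 held 1 and 3 fragments in the libraries labelled KO and 6 and 1 in WT. For both genes the libraries labelled KO lay below both WT libraries, with log2 differences of −0.48 (SE 0.055) for NME1 and −0.53 (SE 0.096) for NME2. How the authors treated fragments that overlap more than 1 gene is not given in the sources used here. Every exon base of NME1-NME2 is shared, yet it held at most 6 fragments, against at least 1583 for NME1. Fragments in shared bases were thus not counted in full for each gene that lists them. How many were left out was not tested. If all the assigned fragments came from the bases of 1 gene alone, the levels would be 109.8 and 110.4 FPKM in the libraries labelled KO and 149.7 and 159.5 FPKM in WT for NME1. For NME2 they would be 4.70 and 4.35 FPKM in the libraries labelled KO and 6.68 and 8.64 FPKM in WT. In that case the NME2 values would come from its upstream exons alone, from bases outside its coding sequence. Neither they nor the difference of −0.53 would then measure the coding part of NME2 RNA. Whether that part differed between the groups was not tested. The ratio of NME1 to NME2 RNA is therefore not given.

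Likeness in sequence between NME1 and NME2 was measured as well, since reads can also be shared in this way. Their coding sequences, aligned at the stop codon without gaps, were identical at 369 of 456 bases (80.9%). The longest run common to both, 23 bases of GENCODE 29 coding sequence on chromosome 17, is shown. No longer stretch of these coding sequences matches both genes exactly. Untranslated bases and matches with mismatches were not searched.
NME1 and NME2 shared run: gccatggtctgggaggggctgaa

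Other nucleoside diphosphate kinases and NME partners were read from a list of 10 genes, of which 6 were tested, 0 rose and 2 fell, with a median of −0.039 (33.3% past the threshold, against 49.9% of all tested genes). NME4, the mitochondrial member, fell to 18.1 and 17.8 FPKM in the libraries labelled KO, against 26.0 and 30.6 FPKM in WT (log2 difference −0.63, SE 0.078, adjusted p = 0.000548). STRAP, a WD-repeat protein reported to bind NME1, fell to 85.6 and 86.5 FPKM, against 112.6 and 103.9 FPKM in WT (−0.33, SE 0.057, adjusted p = 0.00214). NME3, NME6, NME7 and PRUNE1 did not pass, with differences from −0.074 to 0.037. Without WT replicate 2, 1 member rose.

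CD82 (Entrez ID 3732, chromosome 11, 44565610 to 44620363), or KAI1, is a tetraspanin that organises integrins and growth factor receptors in the plasma membrane and was found as a suppressor of prostate cancer metastasis. It measured 31.7 and 29.6 FPKM in the libraries labelled KO and 21.1 and 20.9 FPKM in WT, from 1133 to 3733 fragments. Both libraries labelled KO lay above both WT libraries. The log2 difference was 0.52 (SE 0.057), beside a median of −0.21 over the 15 tested genes within 2 Mb, whose range of −0.48 to 0.80 held it. CREB3L1 alone lay higher, and the next highest was PHF21A (0.21), both named after their values were seen.

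Tetraspanins as a family went both ways. Of 27 listed tetraspanins and partners of CD82, 20 were tested, of which 8 rose and 7 fell, with a median of 0.10 (75.0% past the threshold, against 49.9% of all tested genes). TSPAN5 rose to 24.4 and 25.7 FPKM in the libraries labelled KO, against 14.8 and 13.7 FPKM in WT (log2 difference 0.77, SE 0.060, adjusted p = 5.56e-05). TSPAN33 measured 0.778 and 0.656 FPKM in the libraries labelled KO and 2.46 and 2.21 FPKM in WT (−0.96, SE 0.072). TSPAN5 and TSPAN33 are TspanC8 tetraspanins, which escort the protease ADAM10. TSPAN33 passed the filter of a mean of at least 1 FPKM only through WT. Its call, counted among the 7 falls, is therefore no support. CD9, also studied as a suppressor of motility, fell to 62.3 and 65.3 FPKM, against 80.4 and 85.1 FPKM in WT (−0.37, SE 0.056, adjusted p = 0.0011). TSPAN6 (0.44) and TSPAN3 (0.38) rose, but the medians of their 20 Mb bins were 0.36 and 0.25, and neither call held after these were subtracted (adjusted p = 0.372 and 0.110, the highest of each over its alternatives). The list counted 5 rises and 4 falls without KO replicate 2, the same with a mean of at least 5 FPKM, and 5 rises with no filter.

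BRMS1 (Entrez ID 25855, chromosome 11, 66337333 to 66345125) is a subunit of the SIN3-HDAC corepressor that was identified as a suppressor of breast cancer metastasis. It measured 25.3 and 23.7 FPKM in the libraries labelled KO and 30.7 and 32.4 FPKM in WT, from 1378 to 2619 fragments. The groups did not overlap, and the log2 difference was −0.35 (SE 0.059), beside a median of −0.11 over 107 tested genes within 2 Mb. Its paralog BRMS1L measured 5.87 and 5.98 FPKM in the libraries labelled KO and 5.86 and 5.01 FPKM in WT (log2 difference 0.11, adjusted p = 0.2499). Over 14 alternatives the difference of BRMS1L ran from 0.013 to 0.20, and the 1 pass, as higher, came without WT replicate 1.

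Subunits of the SIN3-HDAC complex went both ways. All 17 listed genes were tested, of which 7 rose and 3 fell, with a median of −0.051 (58.8% past the threshold, against 49.9% of all tested genes). SAP30 rose to 33.5 and 35.8 FPKM in the libraries labelled KO, against 22.6 and 23.4 FPKM in WT (0.57, SE 0.058, adjusted p = 0.000177). The scaffold SIN3A rose to 14.8 and 15.1 FPKM, against 11.2 and 10.1 FPKM in WT (log2 difference 0.45, SE 0.063, adjusted p = 0.000725), ING2 rose by 0.47 and the deacetylase HDAC1 by 0.37. SINHCAF fell by 0.36 on the log2 scale. The medians of their 20 Mb bins were 0.54 for SAP30, 0.40 for ING2, 0.25 for SIN3A and 0.24 for HDAC1. With these subtracted, 3 members rose, SIN3A among them (0.20, adjusted p = 0.0343) and SAP30, ING2 and HDAC1 not (adjusted p = 0.647, 0.391 and 0.102). Each of these p-values is the highest of its gene over 14 alternatives.

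MAP2K4 (Entrez ID 6416, chromosome 17, 12020822 to 12143828) and MAP2K7 (Entrez ID 5609, chromosome 19, 7903785 to 7914478) are the kinases that activate JNK, and MAP2K4 also acts on p38. MAP2K4 was nearly level, with 10.6 and 11.3 FPKM in the libraries labelled KO and 10.7 and 10.8 FPKM in WT, from 1066 to 2593 fragments. The groups overlapped, and the log2 difference was 0.030 (SE 0.058). MAP2K7 measured 19.0 and 18.1 FPKM in the libraries labelled KO and 21.6 and 24.0 FPKM in WT. The log2 difference of MAP2K7 was −0.28 (SE 0.065), beside a median of −0.17 in its 20 Mb bin. Without KO replicate 2 it was −0.25 (SE 0.096) and no longer past the threshold, and with bin medians subtracted it was −0.11 (SE 0.065).

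Of 26 tested genes in the stress-activated kinase cascade, 2 rose and 7 fell, with a median of −0.019 (34.6% past the threshold, against 49.9% of all tested genes). MAP2K3, which activates p38, fell to 23.3 and 21.6 FPKM in the libraries labelled KO, against 31.6 and 33.0 FPKM in WT (log2 difference −0.51, SE 0.059, adjusted p = 0.000336). The JNK scaffold MAPK8IP1 (−0.31, adjusted p = 0.0071) and the upstream kinase MAP3K1 (−0.31, adjusted p = 0.00386) fell too. MAPK8IP1 was not called without KO replicate 2 (adjusted p = 0.0815, its highest over the alternatives) or with no filter on low values (0.0543), nor MAP3K1 without KO replicate 1 (0.0553, its highest over the alternatives). The JNK substrate JUN rose to 47.9 and 49.4 FPKM, against 32.4 and 37.6 FPKM in WT (0.47, SE 0.074, adjusted p = 0.00156; bin median 0.23). The kinases themselves, MAPK8 for JNK1 (0.097, adjusted p = 0.180) and MAPK14 for p38-alpha (0.19, adjusted p = 0.0576), did not pass. MAPK8 did as lower with bin medians subtracted (−0.20, adjusted p = 0.0241), the 1 pass of its 14 alternatives. MAPK14 did as a rise in 6 of 14 alternatives, among them voom on fragments (adjusted p = 0.0171) and without WT replicate 1 (log2 difference 0.28). The falls numbered 3 without KO replicate 1, 4 without KO replicate 2 and 3 with no filter, and the rises 4 without either WT library.

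TXNIP (Entrez ID 10628, chromosome 1, 145992435 to 145996579) encodes an alpha-arrestin that binds thioredoxin and lowers glucose uptake. It is a classic target of MondoA, a glucose-sensing factor encoded by MLXIP. TXNIP measured 75.2 and 78.1 FPKM in the libraries labelled KO and 51.3 and 50.4 FPKM in WT, from 3748 to 13452 fragments. Both libraries labelled KO lay above both WT libraries, with means of 76.6 ± 2.07 FPKM in the libraries labelled KO and 50.9 ± 0.623 FPKM in WT. The log2 difference of 0.58 (SE 0.052) exceeded that of all 20 tested genes that start within 2 Mb (−0.49 to 0.27, median −0.098). By the distance used for KISS1, the genes nearest to TXNIP in shape were OARD1, IPP, BNIP3L, ZWINT and CUL4B (0.0089 to 0.022).

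The upstream sequence of TXNIP is shown for the repeated element through which MondoA is known to act. Capitals mark a pair of CACGAG elements 5 bases apart, CCAAT boxes (the first on the other strand) and TATATA (GRCh38.p14, chr1:145996580-145996829, minus strand, 5′ to 3′ on the gene's strand, from RefSeq, for the more upstream of its 2 listed starts).
TXNIP upstream: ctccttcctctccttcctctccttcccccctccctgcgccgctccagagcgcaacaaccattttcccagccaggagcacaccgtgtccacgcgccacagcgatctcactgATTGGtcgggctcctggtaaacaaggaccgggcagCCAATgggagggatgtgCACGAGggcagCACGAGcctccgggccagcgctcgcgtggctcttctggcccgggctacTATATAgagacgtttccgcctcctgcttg
The pair spans bases 88 to 72 before the start. Searched on both strands, the pair was found in 2 of 35116 upstream windows, the other at KCTD5, while a single CACGAG, which the pair contains, was in 5.58%, CCAAT in 32.0% and TATATA in 3.73%. Only the exact letters and spacing of the TXNIP pair were searched, so its own match was fixed in advance. How common looser forms of the element are was not tested. The match is a description, and binding was not measured.

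Of 14 tested genes around TXNIP (alpha-arrestins, the thioredoxin system, the Mondo factors and glucose or stress genes), 6 rose and 6 fell, with a median of 0.058 (85.7% past the threshold, against 49.9% of all tested genes). DDIT4, a stress-induced inhibitor of mTORC1, rose to 64.1 and 63.4 FPKM in the libraries labelled KO, against 32.2 and 34.6 FPKM in WT (log2 difference 0.91, SE 0.056, adjusted p = 1.76e-05; bin median 0.35). The glucose transporter SLC2A1 rose to 152.5 and 147.0 FPKM, against 101.7 and 103.3 FPKM in WT (0.54, SE 0.051, adjusted p = 0.000128; bin median 0.23). MLXIPL, the paralog of MondoA, measured 1.38 and 1.48 FPKM in the libraries labelled KO and 0.625 and 0.698 FPKM in WT (0.55, SE 0.067). MLXIPL passed the filter of a mean of at least 1 FPKM only through the libraries labelled KO. Its call, counted among the 6 rises, is therefore no support. ARRDC4, another MondoA target, named here after its values were seen, rose to 2.27 and 2.30 FPKM, against 1.38 and 1.32 FPKM in WT (0.48, SE 0.062, adjusted p = 0.000498; bin median 0.21). MLXIP, for MondoA itself, fell to 14.5 and 13.7 FPKM, against 17.1 and 16.5 FPKM in WT (−0.24, SE 0.056, adjusted p = 0.00889; bin median −0.20). MLX, the dimer partner of the Mondo factors, fell to 38.7 and 39.1 FPKM, against 47.6 and 50.4 FPKM in WT (−0.33, SE 0.054, adjusted p = 0.00173). Thioredoxin itself, TXN, fell to 315.4 and 322.8 FPKM, against 388.6 and 443.6 FPKM in WT (−0.38, SE 0.069, adjusted p = 0.00292), and the mitochondrial reductase TXNRD2 fell by 0.39 on the log2 scale. The more abundant cytosolic reductase TXNRD1 rose to 82.4 and 83.9 FPKM, against 72.1 and 69.6 FPKM in WT (0.23, SE 0.051, adjusted p = 0.00702). MLXIP, MLX and TXNRD1 were also named after their values were seen. The list counted 3 falls without KO replicate 2 and 3 with bin medians subtracted.

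NDRG1 (Entrez ID 10397, chromosome 8, 133237175 to 133297252) is induced by hypoxia and other stress and slows metastasis in several carcinoma models. It measured 41.7 and 40.6 FPKM in the libraries labelled KO and 37.5 and 34.9 FPKM in WT, from 3904 to 10542 fragments. The groups did not overlap, and the gap between them was about as wide as the spread within WT. The log2 difference was 0.18 (SE 0.057). It was past the threshold in 9 of 14 alternatives. It was not past it without KO replicate 1 (0.16, SE 0.091), KO replicate 2 (0.20, SE 0.091) or WT replicate 2 (0.13, SE 0.063), with a replicate block (SE 0.074) or with no filter.

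Of 8 tested genes of the NDRG family and its regulators, 2 rose and 2 fell, with a median of 0.018 (50% past the threshold, against 49.9% of all tested genes). The oxygen-sensing factor HIF1A rose to 145.6 and 148.1 FPKM in the libraries labelled KO, against 102.7 and 93.7 FPKM in WT (log2 difference 0.58, SE 0.059, adjusted p = 0.000188). EGR1, an early response factor reported to induce NDRG1, fell to 18.9 and 17.8 FPKM, against 27.6 and 27.3 FPKM in WT (−0.55, SE 0.056, adjusted p = 0.00018). SGK1, a kinase that phosphorylates NDRG1, rose by 0.22 (adjusted p = 0.0220), a call lost without KO replicate 1, without KO replicate 2 and with no filter (10 passes in 13 alternatives). The list counted 1 rise in these fits and at a minimum mean of 5 FPKM, and 1 fall without KO replicate 2 and with bin medians subtracted. NDRG3 did not pass (0.067, adjusted p = 0.315) but did as higher with bin medians subtracted (0.19, adjusted p = 0.0239; 0.0239 to 0.639 over 14 alternatives).

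**Figure D4:**
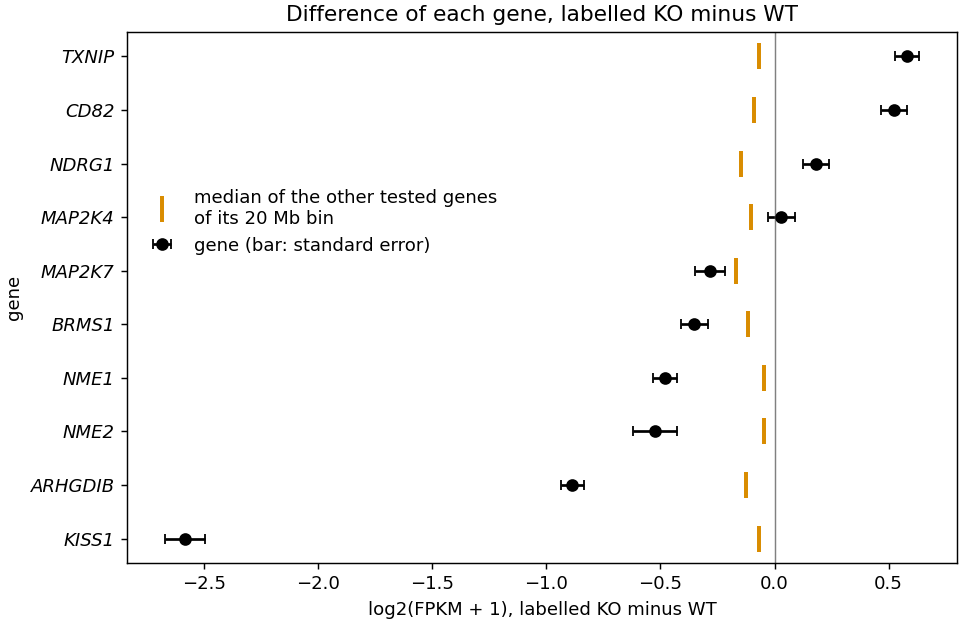
Log2 difference, libraries labelled KO minus WT on the log2(FPKM + 1) scale, of the 10 genes, with standard errors from the fit over all genes (n = 2 libraries per group) and, in orange, the median of the other tested genes in the 20 Mb bin of each. KISS1 lies at −2.59, the remaining genes lie between −0.89 and 0.58, and the bin medians lie between −0.17 and −0.044.

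The medians of the 20 Mb bins of the 10 genes ran from −0.17 to −0.044, beside −0.041 over all tested genes. With bin medians subtracted, the difference of NDRG1 was 0.33. KISS1 went to −2.52 and ARHGDIB to −0.76.

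A further list of 29 genes, drawn up as other metastasis suppressors, held 20 tested genes, of which 6 rose and 6 fell, with a median of 0.035 (60.0% past the threshold, against 49.9% of all tested genes). The falls include DRG1 (Entrez ID 4733, −0.28), named after its values were seen. It is a different gene from NDRG1, which has gone by the same name, so its place on the list is doubtful. CDH11, a mesenchymal cadherin, rose to 7.13 and 7.75 FPKM in the libraries labelled KO, against 4.04 and 3.44 FPKM in WT (log2 difference 0.83, SE 0.077, adjusted p = 0.000123). The actin-severing protein GSN rose to 19.8 and 19.4 FPKM, against 11.7 and 13.0 FPKM in WT (0.63, SE 0.064, adjusted p = 0.000188). FBXW7, a ubiquitin ligase subunit on chromosome 4, rose by 0.35 in a bin with a median of 0.46, and after subtraction its difference was −0.11. CERS2, a ceramide synthase, fell to 62.9 and 63.5 FPKM, against 81.5 and 83.1 FPKM in WT (−0.38, SE 0.050, adjusted p = 0.000605). E-cadherin, CDH1, was below the filter, at 0.597 and 0.625 FPKM in the libraries labelled KO and 0.177 and 0.128 FPKM in WT. Each count was 3 without KO replicate 2, as was that of rises without KO replicate 1 and that of falls with bin medians subtracted.

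**Figure D5:**
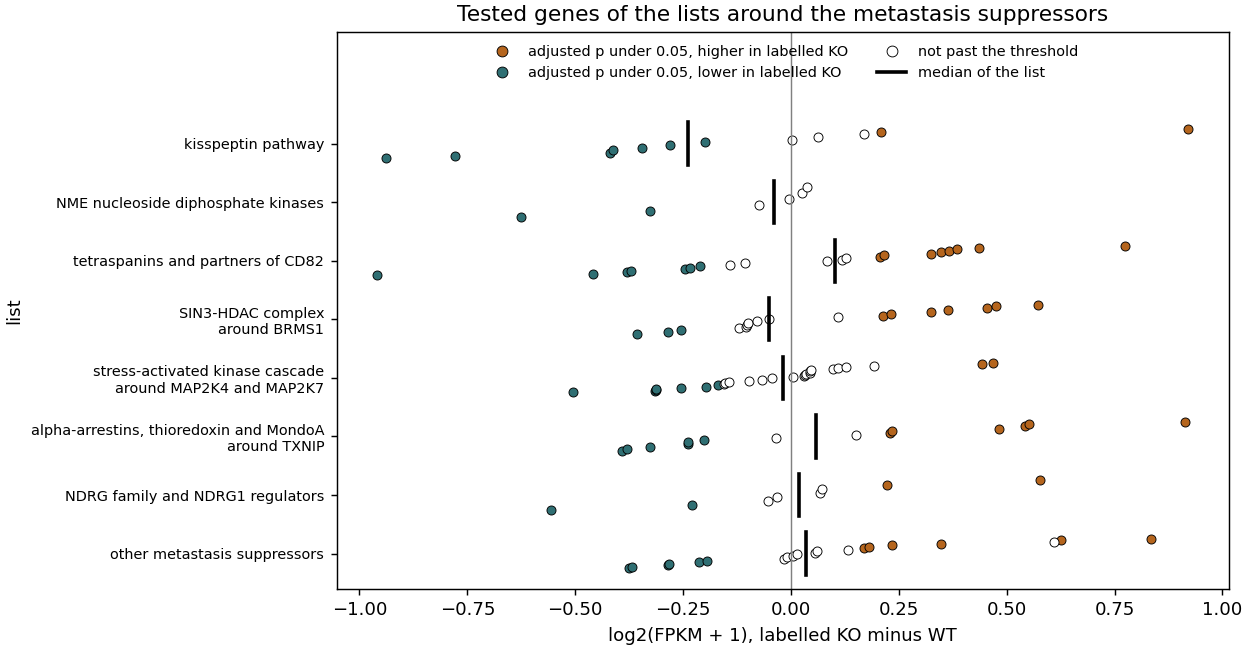
Log2 difference, libraries labelled KO minus WT, of every tested gene in 8 lists around the 10 genes, filled where the adjusted p was under 0.05 (brown for higher, teal for lower), with the median of each list as a bar. Each list except that of the nucleoside diphosphate kinases holds filled points on both sides of 0.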

How the data were processed

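RNA from 4 libraries of MDA-MB-231 cells was sequenced, and libraries were grouped by title. STAR, Subread and DESeq2 are named in the submitters' processing notes, without version or role. For genome build, annotation, strand setting and overlapping genes, the settings were not given in the sources used here. What the authors deposited were FPKM values for 39259 genes by Entrez ID, with exon coordinates and lengths, per the file headers. FPKM times kilobases summed to 1000000 per library, and 100% of the values above 0 were whole multiples of the smallest (tolerance 0.001), which gave the fragments. These counts cover counting error only. Symbols came from RefSeq on GRCh38.p14 for 96.0% of the genes, and 98.4% of those on 1 chromosome had a start or end within 1000 bp of that assembly.

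Genes averaging at least 1 FPKM over the 4 libraries were tested with limma 3.58.1 (R 4.3.3; trend and robust) on log2(FPKM + 1), as labelled KO minus WT, using Benjamini-Hochberg adjustment over all tested genes and a threshold of 0.05. Because 1 FPKM is added, folds of low genes are understated. The 10 genes and the lists around them were chosen with earlier results of these data known. The named genes were the 10, RIOX2, fixed partners, the 3 largest calls of each list in its main direction and 1 in the other, 3 neighbours on each side of KISS1 and the 5 genes nearest in shape to KISS1 and to TXNIP. In ties the direction of the largest call came first, and names added later are marked. Overlaps were counted on the deposited exons, and coding sequences and promoters came from GENCODE 29 and RefSeq. The main fit, voom and the fit with bin medians subtracted were checked on simulated counts with known folds. The other steps were not checked in this way. Replicate numbers are shared by the groups, but the labels name no common culture, and the differences between replicates 1 and 2 correlated at −0.22 between groups, so no pairing was used. Libraries differed by more than sampling noise within groups (chi-square per degree of freedom 5.30 for KO and 7.62 for WT). Alternatives were a pseudocount of 0.1, no filter, a mean of at least 5 FPKM, quantile or median-of-ratios scaling, limma with neither trend nor robust, a replicate block, each library left out, voom on fragments and 20 Mb bin medians subtracted. The numbers of alternatives given per gene also count a crossed replicate block, added after the data were seen. In it the replicate numbers of the libraries labelled KO were swapped. The passes counted for RIOX2, MAPK14 and NDRG1, among others, include it. In fits without 1 library, the lone library was assumed to vary like the other group. Small p-values from such fits are therefore no added support. 1 list of partner genes, and the genes the rule would name from it, are not reported here.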

Additional observations from a re-analysis of the deposited data

How the results depend on the processing

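For the 10 genes, which were chosen with their differences known, the values under the alternatives are a description and no sign of stability. The log2 difference ranged from −2.75 to −2.47 for KISS1, −0.91 to −0.76 for ARHGDIB, −0.53 to −0.44 for NME1, −0.72 to −0.39 for NME2, −0.40 to −0.24 for BRMS1, 0.48 to 0.61 for CD82 and 0.55 to 0.65 for TXNIP. NME2 was left out by a mean of at least 5 FPKM. MAP2K7 was not past it with no filter (−0.28) or with bin medians subtracted (−0.11), and ranged from −0.35 to −0.21 with each library left out. NDRG1 was not past it with no filter or with a replicate block (0.18 in both), and ranged from 0.13 to 0.23 with each library left out. MAP2K4 ranged from −0.012 to 0.072 with each library left out, so its sign changed. Counts over all genes ranged from 1559 to 3076 higher and from 1962 to 4001 lower with each library left out, and those of the listed partners from 29 to 52 lower. MAPK8 (−0.20) and FBXW7 (−0.11) changed sign with bin medians subtracted, and RHOC did so without KO replicate 1 or WT replicate 1 (−0.021 to 0.051 with each library left out). The replicate block gave 2348 higher and 3029 lower genes and ended, of the calls on the 10 genes, that of NDRG1 only. A crossed block, added after the data were seen because same-numbered libraries deviated in opposite directions, gave 2839 and 3821. The causes of these changes were not tested. With 2 libraries per group the spread is poorly known.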
